A study of Mus musculus with 2 samples.

Results

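Cells of the mouse lung that carry *Itga8*, *Gli1*, *Nox4* or *Snai2* transcripts were taken as fibroblasts, and a part of them also had many smooth muscle transcripts. They were described in Xenium In Situ sections of small cell lung cancer (SCLC) lungs, 1 from an RPR2 mouse and 1 from a CRPR2 mouse. Xenium counts transcripts of a chosen gene panel in place, and the authors deposited the counts of 479 genes for each segmented cell. RPR2 mice are homozygous for floxed (lox/lox) alleles of *Rb1*, *Trp53* and *Rbl2* (the labels name C57BL/6 mice) and received adenoviral Cre into the trachea when 10 weeks old, and lungs were taken 6 months later. CRPR2 mice carry the same alleles, received the same Cre and also have a germline *Cracd* KO. The 3 floxed genes are therefore deleted only in cells that Cre reached, whereas the *Cracd* KO is present in every CRPR2 cell, fibroblasts included. *Cracd* and *Rbl2* were not analysed here, so the genotypes were taken from the labels. For the RPR2 and CRPR2 tumors of its scRNA-seq, the study names an adenovirus with Cre under the CMV promoter, which is not restricted to a cell type of the lung.

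A cell was a member when it had at least 20 gene transcripts and at least 3 transcripts of *Itga8*, *Gli1*, *Nox4* and *Snai2* in sum. It also had at most 1 transcript of *Rgs5*, at most 2 of *Upk1b*, at most 1 of the neuroendocrine genes *Chga*, *Chgb*, *Scg5*, *Snap25* and *Celf3*, and at most 4 of the endothelial genes *Pecam1*, *Sox17*, *Gpihbp1*, *Clec14a* and *Calcrl*. This gate kept 21968 of 493524 cells, 13119 in the RPR2 section and 8849 in the CRPR2 section. Each genotype has a single section and hence no replicates, so no test was run and every difference is between these 2 sections, not between genotypes. Intervals in parentheses are 95% intervals and cover counting error only. The panel libraries share 8 cell barcodes by name, and 1 of these belongs to a member.

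Lung fibroblasts lay down the collagens and elastic fibers that hold airspaces, airways and vessels in shape, and they differ by place. Cells with integrin alpha 8 (*Itga8*) are known from the alveolar walls, and cells with *Gli1*, the transcription factor that hedgehog signaling induces, are known from the sheaths around airways and vessels. *Nox4* makes hydrogen peroxide and is known as a TGF-beta target in myofibroblasts, and *Snai2* encodes the transcription factor Slug, known from mesenchymal cells.

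The 4 genes of the gate were mixed differently in the sections. These values chose the members and are given as a description. Levels are CPM, that is the sum of a gene's transcripts in all cells of a class, scaled to a total of 1e+06 gene transcripts. *Itga8* had 28911 CPM in RPR2 members and 14786 CPM in CRPR2 members, and 93.0% and 77.0% of members had a transcript of it. *Gli1* had 2349 and 3669 CPM, in 16.1% (15.4 to 16.7) and 29.0% (28.1 to 30.0) of members. *Nox4* was close in both, with 17133 and 16423 CPM, and so was *Snai2*, with 3289 and 2577 CPM. *Itga8* made up more than 50% of the gate transcripts in 55.7% of RPR2 members and 31.7% of CRPR2 members, and *Nox4* did so in 17.2% and 35.1%. Transcripts of all 4 genes were found in 1.49% of RPR2 members and 3.65% of CRPR2 members, and transcripts of 1 of them alone in 15.2% and 16.3%. The CRPR2 members thus held less *Itga8* and more *Gli1* than the RPR2 members under the same rule.

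The gate sum had a median of 5 in RPR2 and 4 in CRPR2, and 27.7% and 33.4% of members lay at the minimum of 3. Cells just inside the gate were close to those just outside it. In RPR2, *Col1a1* had 14995 CPM in cells with a sum of 2, 18913 CPM at a sum of 3 and 20122 CPM at a sum of 4. In CRPR2 the same steps gave 25335, 33949 and 38355 CPM. The gate therefore marks a range on a continuum of counts and not a sharp class. Among cells with a sum of 3 or more, 9040 in RPR2 and 3550 in CRPR2 were past the endothelial limit, which was the limit most often passed in both sections.

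Each gate gene was also raised in cells that the other 3 genes picked out, a level that those gates did not use. With *Itga8* left out of the gate, its level was 27747 CPM in RPR2 members against 5313 CPM in other cells, and 11180 against 1063 CPM in CRPR2, which is 5.22 and 10.5 times as high. With *Gli1* left out, the ratios were 3.80 and 15.7. With *Nox4* left out they were 5.40 and 9.93, and with *Snai2* left out 5.26 and 6.26. The other cells are a different mix in each section, since neuroendocrine cells were 8.95% of RPR2 cells and 46.6% of CRPR2 cells. Ratios over other cells, here and below, thus describe each section by itself.

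Fibroblast genes that the rule did not use marked the same cells. Of 50 such genes listed, 11 are on the panel and 10 had at least 100 CPM in members or in other cells. In RPR2, 9 of the 10 were at least 2-fold higher in members than in the other cells of the section, against 14.3% of all 328 genes compared, and in CRPR2 10 of 10, against 20.5% of 336. The medians were 1.73 and 3.09 on the log2 scale, against -0.71 and -0.21 over all genes. Since the members were chosen from the same cells, these counts describe the gate and are no test. *Col1a1*, the main chain of type I collagen, had 21163 CPM in RPR2 members and 4686 CPM in other cells, and 39826 and 3994 CPM in CRPR2. *Mfap4*, a protein of elastic fibers, had 27273 against 7342 CPM and 29552 against 3197 CPM. A transcript of at least 1 of the 11 genes was found in 97.5% of RPR2 members and 98.9% of CRPR2 members. *Col1a1* transcripts were found in 58.8% of RPR2 members and 77.0% of CRPR2 members after each cell was thinned to 50 transcripts, against 10.5% and 17.8% of endothelial cells and 2.12% and 3.53% of neuroendocrine cells thinned alike. Most members thus had fibroblast genes outside the rule.

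Genes were also ranked by their ratio of members over other cells in both sections. Among the 10 highest were *Col17a1*, *Mmp2*, *Htra3*, *Mamdc2*, *Mfap5*, *Sod3*, *Col1a1*, *Serpina3n* and *Tnfaip6*. *Mmp2*, a gelatinase, was 5.08 times as high in RPR2 members as in other cells and 10.8 times in CRPR2. *Sod3*, the extracellular superoxide dismutase, was 4.57 and 9.53 times as high. *Col17a1*, a hemidesmosome collagen better known from epithelium, was 5.47 and 6.74 times as high, at 645 and 299 CPM. At the other end, 131 genes (39.9%) in RPR2 and 115 (34.2%) in CRPR2 were at least 2-fold lower in members. Relative to the median gene, 71 genes were higher and 70 lower in RPR2, and 85 and 99 in CRPR2, a balance that centring on the median itself favors.

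**Figure D1:**
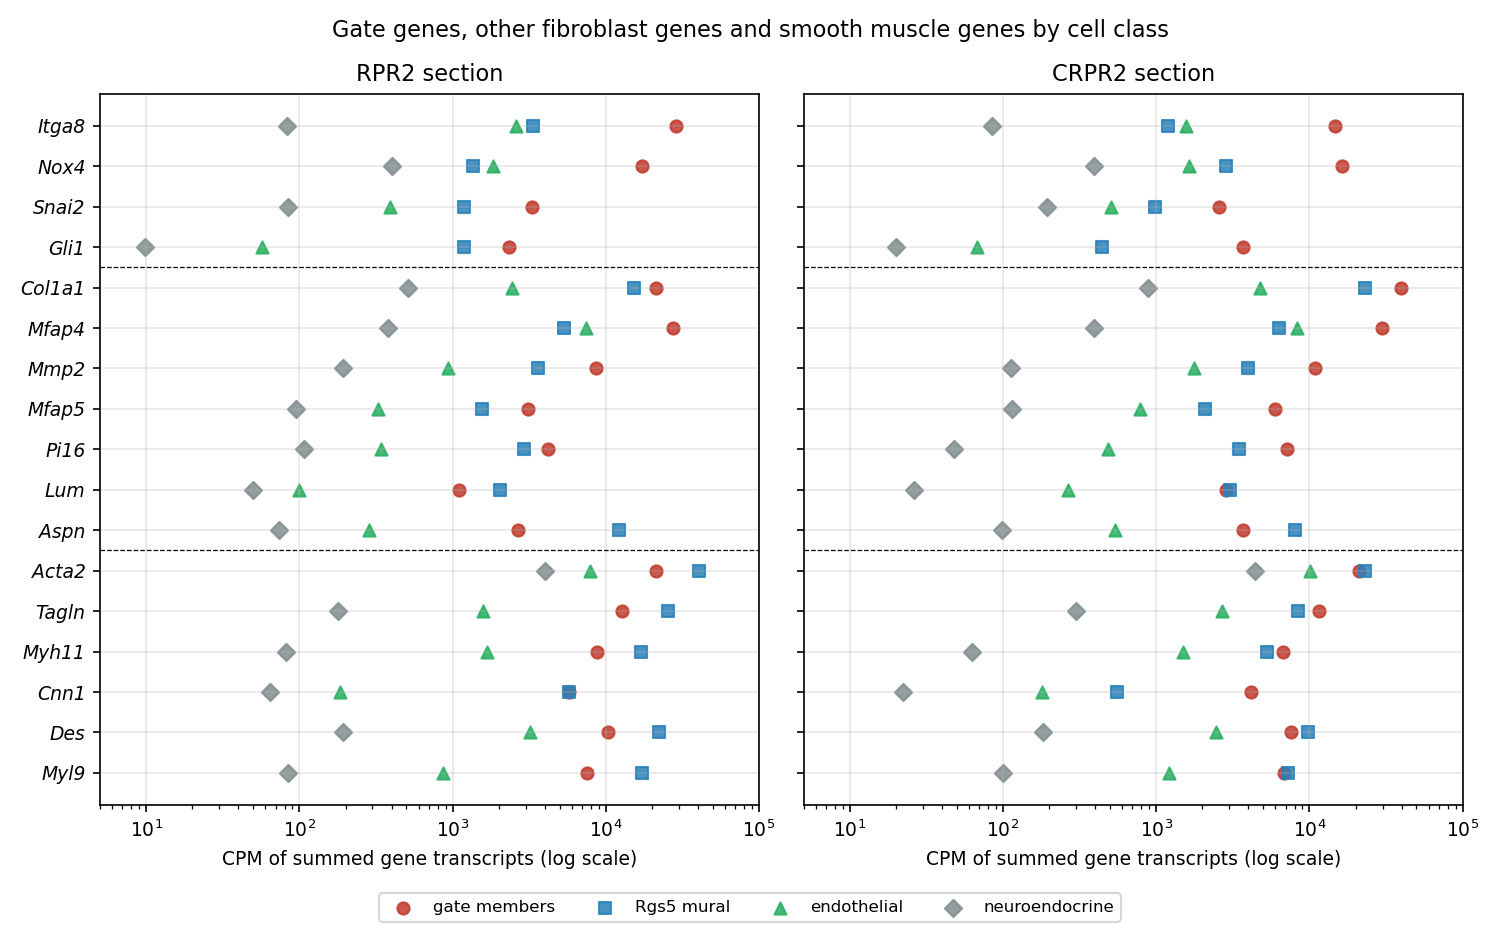
Level of 17 genes in gate members (circles), *Rgs5* mural cells (squares), endothelial cells (triangles) and neuroendocrine cells (diamonds) of the RPR2 section (left) and the CRPR2 section (right), in CPM on a log scale, with 1 section per genotype and no error bars. Broken lines part the gate genes, other fibroblast genes and smooth muscle genes. *Mfap4* and *Mmp2* were highest in members, whereas *Aspn*, *Des* and *Acta2* were highest in mural cells.

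Smooth muscle genes were also higher in members than in the other cells of each section, except *Pln* in RPR2. Of 6 listed smooth muscle genes on the panel, 5 were at least 2-fold higher in members than in other cells in each section, against 14.3% of all genes in RPR2 and 20.5% in CRPR2. The remaining gene was *Pln*, phospholamban. It was lower in RPR2 members, with 451 CPM against 1027 CPM in other cells, and higher within 2-fold in CRPR2, with 579 against 416 CPM. *Acta2*, smooth muscle actin, had 21294 CPM in RPR2 members and 20985 CPM in CRPR2 members, 2.04 and 2.81 times the level in other cells. *Rgs5* mural cells, the class of pericytes and vessel muscle outside the gate, had more *Acta2*, at 40324 and 22933 CPM. Members with at least 10 transcripts of *Acta2*, *Tagln*, *Myh11*, *Cnn1*, *Des* and *Myl9* made up 16.3% (15.7 to 16.9) of RPR2 members and 19.0% (18.2 to 19.8) of CRPR2 members. This split was chosen after its values were seen. Calponin (*Cnn1*) had 29679 CPM in the members with at least 10 transcripts and 260 CPM in the rest in RPR2. In CRPR2 it had 19001 and 226 CPM, and the split itself fixed this. Smooth muscle myosin (*Myh11*) had 41789 against 1250 CPM and 28586 against 904 CPM. *Acta2* had 9116 CPM in the rest in RPR2 and 10089 CPM in CRPR2, against 10443 and 7458 CPM in the other cells of the sections.

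Beside the 6 genes of the split, 16 of 293 genes (5.46%) were at least 2-fold higher in the smooth muscle subset in both sections and 65 (22.2%) were lower. Relative to the median gene these were 32 and 31. *Hey2*, a NOTCH target of vessel walls, had 2454 against 313 CPM in RPR2 and 2041 against 337 CPM in CRPR2. *Mustn1*, a muscle protein, had 11756 against 858 CPM and 8325 against 985 CPM. *Aspn*, a small matrix proteoglycan, had 10858 against 824 CPM and 8886 against 2294 CPM. *Thbs1* and *Ccn2*, both targets of TGF-beta, had 18662 against 5415 CPM and 17084 against 5898 CPM in RPR2, and 22196 against 10159 CPM and 21026 against 8649 CPM in CRPR2. *Col1a1* did not part the subsets, with 20417 against 21333 CPM in RPR2 and 42653 against 39077 CPM in CRPR2. Of the gate genes, *Snai2* was lower in the smooth muscle subset, at 706 against 3878 CPM and 1126 against 2962 CPM. *Nox4* was lower too, at 8162 against 19179 CPM and 12674 against 17418 CPM, whereas *Itga8* and *Gli1* pointed different ways in the sections. The gate trades its genes against each other, so these values are a description. These members have the gate genes together with smooth muscle genes, so the name fibroblast may not hold for all members. The panel values do not tell smooth muscle from myofibroblasts.

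Transcripts of the alveolar epithelium lay in the members as well. *Ager*, the marker of alveolar type 1 cells, had 11670 CPM in RPR2 members and 11517 CPM in the other cells, and 7457 and 4664 CPM in CRPR2, and 46.2% and 35.4% of members had a transcript. The 3 genes of the type 1 list on the panel, of 6 listed, include *Lamp3*, which is on the type 2 list too. They summed to 18785 CPM in RPR2 members and 19113 CPM in other cells, and to 14268 and 11009 CPM in CRPR2, with no gene at 0. The sum is thus not one of type 1 genes alone. In the smooth muscle subset, *Ager* was far lower than in the rest (1365 against 14020 CPM in RPR2 and 1849 against 8945 CPM in CRPR2). The 5 neuroendocrine genes are capped by the rule, and *Insm1*, a neuroendocrine transcription factor that the rule did not use, had 53.8 CPM in RPR2 members and 221 CPM in CRPR2 members, against 1251 and 5995 CPM in the other cells. The part of segmentation, which assigns transcripts of neighbors to a cell, in these levels was not tested.

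Members with a *Gli1* transcript had more *Pi16*, *Lum* and *Serpinf1* and less *Ager* than the rest in both sections, whereas smooth muscle genes pointed different ways. Members with *Gli1* numbered 2106 in RPR2 and 2568 in CRPR2 and were somewhat deeper, with a median of 125 and 140 transcripts against 103 and 123. With the gate genes left out, 11 of 302 genes (3.64%) were at least 2-fold higher in them in both sections and 24 (7.95%) were lower. Without exclusion limits in the gate, 56 genes in place of these 35 passed in either direction. *Pi16*, a marker of adventitial fibroblasts around vessels and airways, had 16035 against 1485 CPM in RPR2 and 14832 against 3568 CPM in CRPR2. *Lum*, the collagen-binding proteoglycan lumican, had 3998 against 442 CPM and 5149 against 1781 CPM. *Serpinf1*, which encodes the secreted factor PEDF, had 9395 against 1033 CPM and 5618 against 1870 CPM. *Ackr3*, a scavenger receptor for CXCL12, had 1906 against 377 CPM and 2118 against 775 CPM. *Thbs4*, a matrix protein of tendon and vessels, had the highest ratio, at low levels (161 against 14.1 CPM and 181 against 33.8 CPM). *Tnfaip6*, *Igfbp6*, *Ccdc80*, *Car3*, *Tnnc1* and *Sox9* completed the 11 genes. *Col1a1* was also higher, at 34847 against 18009 CPM and 54491 against 33005 CPM, but within 2-fold.

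Alveolar genes were among those lower in members with *Gli1*. *Ager* had 3269 against 13606 CPM in RPR2 and 3585 against 9258 CPM in CRPR2. *Slc34a2*, the phosphate carrier of alveolar type 2 cells, had 3452 against 11169 CPM and 5312 against 12736 CPM. *Trim29*, *Cxcr2*, *Cdh16*, *Gap43* and *Lipg* had the lowest ratios, and *Gap43*, a growth cone protein, had 445 against 1385 CPM in RPR2 and 368 against 1201 CPM in CRPR2. *Itga8* was 14707 against 32185 CPM and 8288 against 17809 CPM, a difference that the gate favors, since a member with *Gli1* needs fewer transcripts of the other genes. *Myh11* had 10138 against 8466 CPM in RPR2 and 3705 against 8106 CPM in CRPR2, and *Cnn1* had 6761 against 5485 CPM and 2398 against 4984 CPM.

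**Figure D2:**
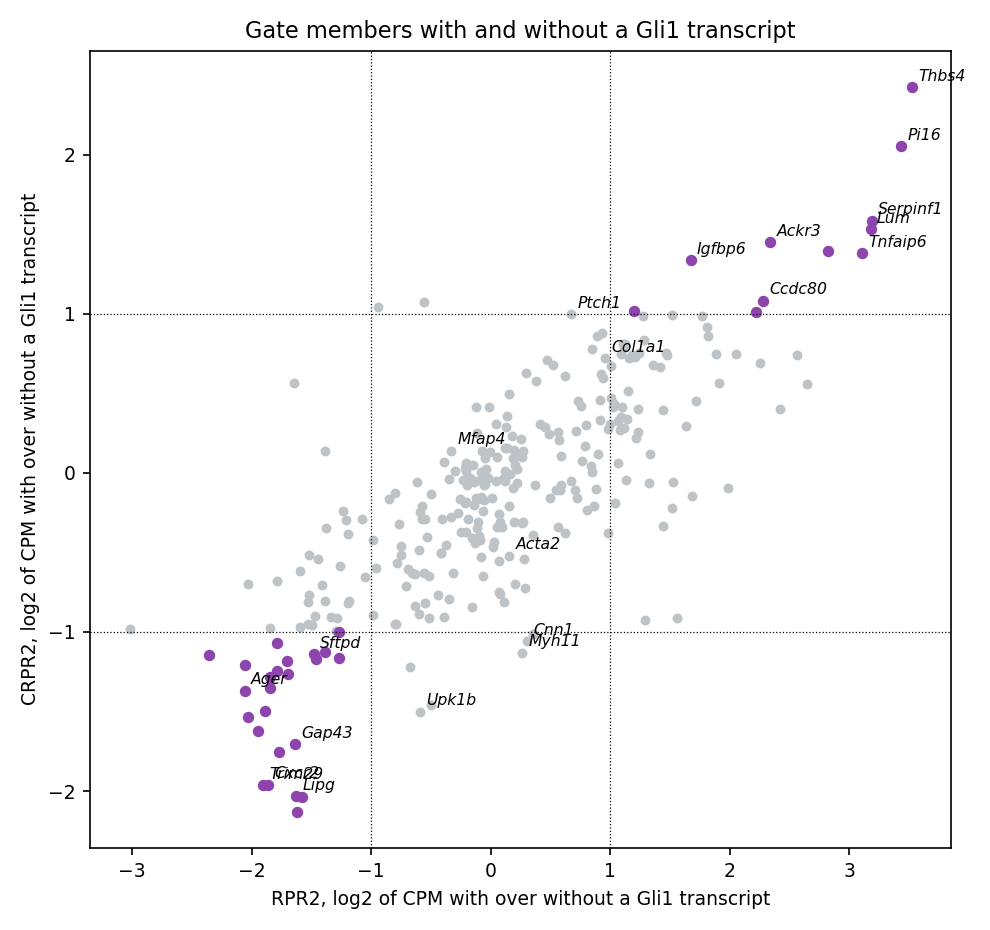
Log2 ratio of CPM in members with a *Gli1* transcript over members without one, for 302 genes, in RPR2 (horizontal) and CRPR2 (vertical). Purple points are the 11 genes higher and 24 genes lower by at least 2-fold in both sections, with *Pi16*, *Lum* and *Serpinf1* at the upper right and *Ager*, *Trim29* and *Lipg* at the lower left, and dotted lines mark 2-fold.

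*Ptch1*, the hedgehog receptor that is itself a hedgehog target, is the only gene of the hedgehog list on the panel outside the gate. It had 4980 CPM in RPR2 members and 5334 CPM in CRPR2 members, 1.59 and 2.05 times the level of other cells. After thinning, a *Ptch1* transcript was found in 29.4% (27.4 to 31.4) of RPR2 members with *Gli1* and 19.2% (18.4 to 19.9) of those without, and in 32.4% (30.6 to 34.3) and 18.4% (17.5 to 19.4) in CRPR2. The share was 12.5% and 10.6% in endothelial cells and 15.8% and 12.7% in neuroendocrine cells, so both kinds of member lay above these classes.

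Other signaling genes were read from the same lists. Ratios over other cells again describe each section by itself, since the mix of other cells differs. Among the EMT transcription factors, *Snai1* had 3562 CPM in RPR2 members and 4370 CPM in CRPR2 members, 3.78 and 7.90 times the level in other cells, and *Twist1* had 116 and 213 CPM, 3.38 and 5.97 times as high. The Hippo targets *Ccn1* and *Ccn2* were both higher, *Ccn1* by 1.99 and 4.45 times and *Ccn2* by 2.72 and 6.81 times. Of 3 WNT genes compared, *Axin2*, a direct target, was 2.45 and 2.38 times as high and *Sfrp1*, a secreted inhibitor, 2.62 and 7.11 times. The remaining gene, *Tbx3*, was lower in RPR2 members and higher in CRPR2 members, within 2-fold in both. Of all genes, 14.3% in RPR2 and 20.5% in CRPR2 were at least 2-fold higher. Of 3 NOTCH targets, *Hey2* was 2.18 and 4.18 times as high in members, whereas *Hey1* was lower (1015 against 2896 CPM in RPR2 and 778 against 1583 CPM in CRPR2). *Hes1* was lower too, within 2-fold, with log2 ratios of -0.92 and -0.60. The BMP target *Id1* was lower as well (587 against 1659 CPM and 691 against 1685 CPM). Of 8 matrix genes, 7 were at least 2-fold higher in each section, against 14.3% and 20.5% of all genes. *Col8a1* was lower (112 against 608 CPM in RPR2 and 202 against 2842 CPM in CRPR2), as were 39.9% and 34.2% of all genes.

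Fewer of the cells were members in CRPR2. Members made up 8.58% (8.44 to 8.72) of the 152915 RPR2 cells and 2.60% (2.54 to 2.65) of the 340609 CRPR2 cells (log2 of CRPR2 over RPR2, -1.72, -1.76 to -1.68). The CRPR2 section held far more neuroendocrine cells, and among cells with fewer than 2 neuroendocrine transcripts the shares were 9.61% and 6.43% (log2 ratio, -0.58). Leaving these cells out of the denominator thus brought the shares closer, whereas thinning each cell before the gate moved them further apart. Median transcripts per member were 106 in RPR2 and 128 in CRPR2, against 100 and 101 in the sections as a whole.

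CRPR2 members were compared with RPR2 members over the 332 genes with at least 100 CPM in either. Of these, 67 (20.2%) were at least 2-fold higher in CRPR2 and 17 (5.12%) were lower. The median of all 332 was 0.18 on the log2 scale, and relative to it 52 were higher and 30 lower. Of the listed genes, 4 of 5 proliferation genes were higher and 3 of 3 genes of ciliated cells were lower, whereas 1 of 10 fibroblast genes outside the rule was higher. All 7 neuroendocrine genes past 100 CPM were higher too, a count that includes genes capped by the rule.

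Of the 8 genes on the matrix list, *Lum* was the 1 that passed 2-fold between the sections. *Lum* had 1108 CPM in RPR2 members and 2850 CPM in CRPR2 members (log2 ratio, 1.36, 1.28 to 1.45). *Col1a1* had 21163 and 39826 CPM (0.91, 0.89 to 0.93), and *Mfap5*, a microfibril protein, had 3112 and 5956 CPM (0.94, 0.88 to 0.99). *Pi16* had 4210 and 7144 CPM (0.76), *Mmp2* 8667 and 10923 CPM (0.33), *Mfap4* 27273 and 29552 CPM (0.12) and *Timp3*, a metalloproteinase inhibitor, 32713 and 29043 CPM (-0.17). The matrix list had a median of 0.59, and 1 of 8 was at least 2-fold higher, against 20.2% of all genes. Outside that list, *Ccdc80*, another matrix protein, had 1597 and 4906 CPM (1.62), and *Tnfaip6*, a hyaluronan-binding protein of inflammation, had 288 and 605 CPM (1.07). *Ccdc80* was picked out after its values were seen. *Fibin*, a secreted protein, was lower, with 2746 CPM in RPR2 members and 1200 CPM in CRPR2 members (-1.19), and *Col17a1* had 645 and 299 CPM (-1.11).

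The ratio of *Lum* moved with the kind of member. It was 0.36 among members with *Gli1* and 2.01 among members without, and *Pi16* had -0.11 and 1.27. *Tnfaip6* had 0.03 and 1.75. The smooth muscle genes parted the ratios as well. Among members under 10 smooth muscle transcripts and members with 10 or more, *Lum* had 1.61 and 0.37, *Pi16* 0.99 and -0.07 and *Tnfaip6* 1.41 and -0.30. The ratios of all 3 genes were thus larger in members without *Gli1* and in those with few smooth muscle transcripts. *Col1a1* was higher in CRPR2 in every subset looked at, from 0.64 among members with *Gli1* to 1.06 among members with at least 10 smooth muscle transcripts, and 0.90 among members without any alveolar transcript. *Col1a1* had a ratio of 0.96 in endothelial cells too and of -0.23 in all other cells. *Itga8* was lower in CRPR2 in the same subsets, by -0.53 to -1.08. It is a gate gene that chose the members of every subset, so these values are a description. Cells outside the gate without *Itga8* had less of it in CRPR2 too, with 5313 CPM in RPR2 and 1063 CPM in CRPR2.

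Smooth muscle genes were within 2-fold between the sections over all members. *Acta2* had a log2 ratio of -0.02, *Tagln*, which encodes transgelin, -0.13, *Myh11* -0.39, *Cnn1* -0.46 and *Des* -0.45. None of the 6 listed genes passed 2-fold, against 20.2% of all genes higher and 5.12% lower. Among members with *Gli1*, however, *Myh11* had 10138 and 3705 CPM (-1.45) and *Cnn1* 6761 and 2398 CPM, both past 2-fold lower in CRPR2. Among members without *Gli1* their ratios were -0.06 and -0.14, and among members without any alveolar transcript -0.76 and -0.89. Of the TGF-beta genes, *Thbs1* had 7876 and 12683 CPM (0.69), and *Smad7*, an inhibitor of the pathway, had 3696 and 3359 CPM (-0.14). None of the listed hedgehog, TGF-beta, BMP, WNT, Hippo, NOTCH, EMT or growth factor genes passed 2-fold between the members of the sections. In that order, the lists held 1, 3, 2, 3, 2, 3, 2 and 8 genes with at least 100 CPM. Of all 332 genes compared, 20.2% were at least 2-fold higher in CRPR2 and 5.12% lower.

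**Figure D3:**
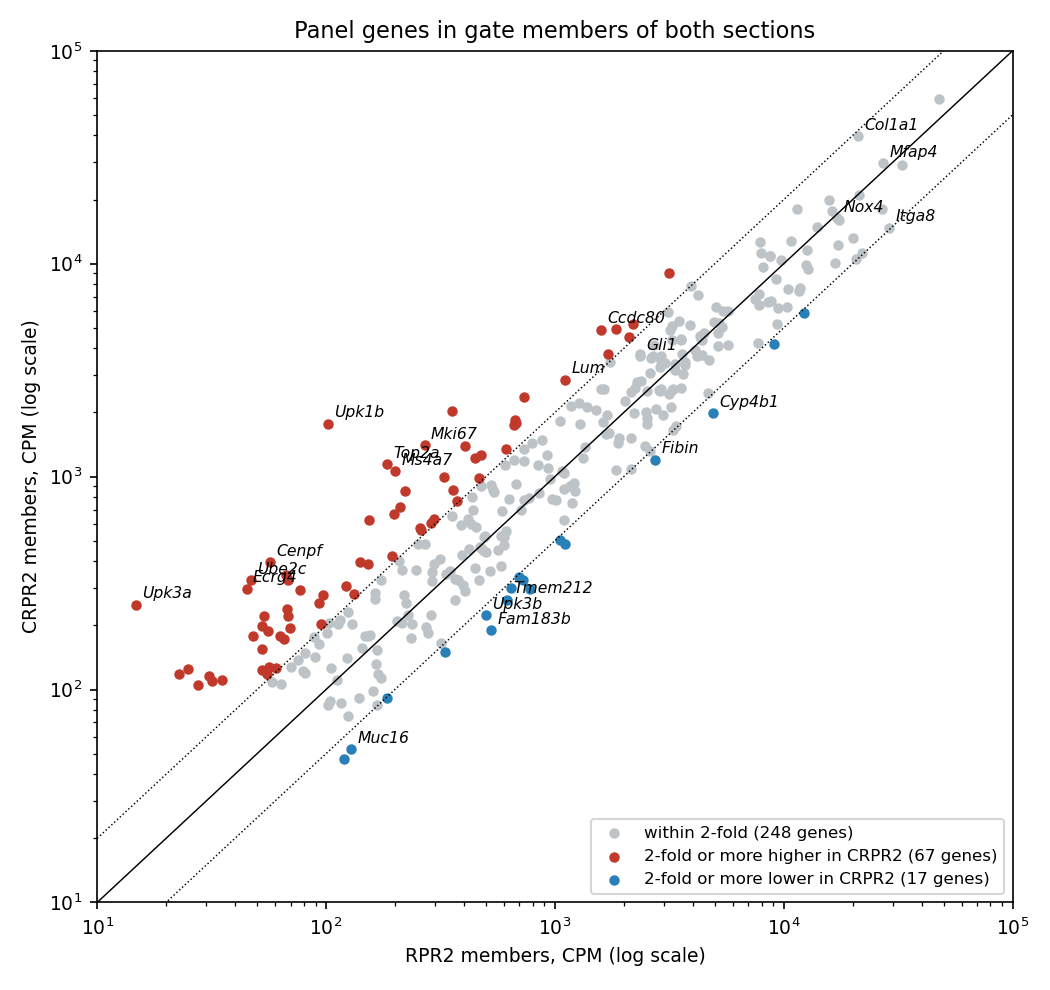
Level of 332 genes in gate members of RPR2 (horizontal) and CRPR2 (vertical), in CPM on log scales, 1 section each. The solid line marks equal levels and the dotted lines 2-fold, with 67 genes above and 17 below, and the gate genes *Nox4*, *Gli1* and *Itga8* lie between the dotted lines.

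Genes of cell division were among the most different. *Mki67*, which encodes the Ki-67 antigen, had 270 CPM in RPR2 members and 1401 CPM in CRPR2 members (log2 ratio, 2.38, 2.22 to 2.54). *Top2a*, the topoisomerase of dividing cells, had 186 and 1144 CPM (2.62), *Cenpf*, a kinetochore protein, 57.1 and 396 CPM (2.79) and *Ube2c*, a ubiquitin carrier of mitotic exit, 47.1 and 328 CPM (2.80). *Pclaf*, a replication clamp factor, had 791 and 1445 CPM (0.87), so 4 of the 5 proliferation genes passed 2-fold. All 5 were still at least 2-fold lower in members than in the other cells of either section. So were 39.9% of all genes in RPR2 and 34.2% in CRPR2. The polycomb enzyme *Ezh2* had 1178 and 2144 CPM (0.86) and *Cdkn1a*, the p53 target p21, 2353 and 3766 CPM (0.68). *Trp53* had 2156 and 2503 CPM and *Rb1* 2882 and 3263 CPM, and these probes were not placed against the deleted exons here. No gene of the 7 in the p53 and RB list passed 2-fold, against 20.2% of all genes higher and 5.12% lower.

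After thinning to 50 transcripts, 1.54% (1.33 to 1.77) of RPR2 members and 8.90% (8.31 to 9.53) of CRPR2 members had a transcript of *Mki67* or *Top2a* (log2 ratio, 2.53, 2.30 to 2.77). With *Pclaf* transcripts counted too, the log2 ratio was 1.40. Without thinning the shares were 2.82% and 15.7%. Endothelial cells, thinned alike, had 1.21% (1.11 to 1.31) and 8.70% (8.36 to 9.04), and neuroendocrine cells 42.7% and 50.4%. Members without an *Insm1* transcript or a transcript of the 5 neuroendocrine genes of the rule had 1.48% and 7.55%. The share was higher in CRPR2 in both classes, and the intervals of members and endothelial cells overlapped in CRPR2 but not in RPR2. How much of these transcripts came from neighboring tumor cells was not tested, and the call does not show cycling by itself.

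**Figure D4:**
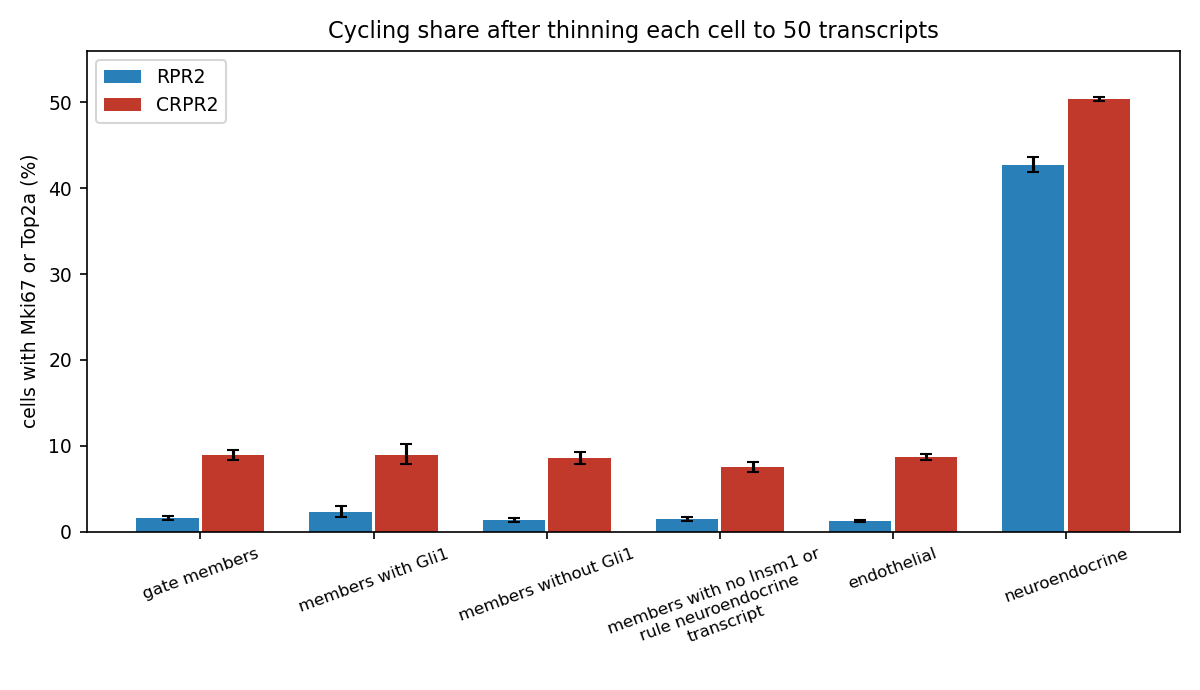
Share of cells with an *Mki67* or *Top2a* transcript after each cell was thinned to 50 transcripts, in percent, for members, subsets of members, endothelial cells and neuroendocrine cells of RPR2 (blue) and CRPR2 (red), with exact binomial 95% intervals. Members had 1.54% and 8.90% and endothelial cells 1.21% and 8.70%, whereas neuroendocrine cells had 42.7% and 50.4%.

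Some genes of tumor cells and macrophages differed between the sections in members and in other classes. *Insm1* had a log2 ratio of 2.04 in members, 2.50 in endothelial cells and 2.26 in all other cells. *Scg2*, a granin that the rule did not use either, had 66.6 and 346 CPM (2.38). *Upk3a*, a uroplakin, had 14.8 and 250.2 CPM (4.08), with 3.52 in endothelial cells and 3.66 in all other cells. *Ms4a7*, a macrophage gene outside the marker list, had 200.3 and 1065 CPM (2.41), with 3.08 in endothelial cells. The 5 macrophage genes on the panel, of 7 listed, summed to 2383 CPM in RPR2 members and 4678 CPM in CRPR2 members, against 3641 and 4025 CPM in other cells, with none at 0. Of these, 1 of 4 past 100 CPM was at least 2-fold higher in CRPR2 members, and of the neutrophil genes 0 of 3, against 20.2% of all genes, so these counts are near the background. *Ecrg4*, which encodes a secreted peptide precursor, had 45.0 and 298 CPM (2.73), with 1.63 in endothelial cells and 0.13 in all other cells.

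The 10 genes with the lowest ratios in CRPR2 members included *Fam183b*, *Ccdc153*, *Tmem212* and *Dynlrb2*, known from motile cilia. *Fam183b* had 527 CPM in RPR2 members and 190.1 CPM in CRPR2 members (log2 ratio, -1.47), *Ccdc153* 776 and 297 CPM (-1.39), *Tmem212* 620 and 264 CPM (-1.23) and *Dynlrb2*, a dynein light chain, 727 and 328 CPM (-1.15). The ratios in all other cells were -2.40, -2.36, -2.14 and -2.11, and the genes were lower in members than in other cells of both sections. *Cyp4b1*, a cytochrome P450 of airway cells, had 4902 and 1985 CPM (-1.30), and *Lipg*, endothelial lipase, 1103 and 484 CPM (-1.19). *Ppbp*, a platelet chemokine, had 120.3 and 46.9 CPM (-1.36). *Muc16* and *Upk3b*, genes of the mesothelium, had 128 and 52.7 CPM (-1.29) and 501 and 224 CPM (-1.16).

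*Upk1b*, another uroplakin gene and a marker of the mesothelium, had the largest ratio of all. It had 101 CPM in RPR2 members and 1773 CPM in CRPR2 members (log2 ratio, 4.13, 3.89 to 4.37), although the rule caps it at 2 transcripts per cell. A transcript was found in 0.976% (0.815 to 1.16) of RPR2 members and 19.0% (18.2 to 19.9) of CRPR2 members, and after thinning in 0.471% and 8.71%. Without the cap, 1.04% and 21.9% of cells in the gate had one, and their levels were 122 and 2606 CPM. It was lower than in other cells in RPR2 (332 CPM) and higher in CRPR2 (248 CPM). Endothelial cells had a transcript in 0.299% and 4.70%, and neuroendocrine cells in 2.16% and 0.250%, both counted without the cap on *Upk1b*. After thinning, cells with a gate sum of 1 or 2 had one in 1.11% and 3.20%, and cells with a gate sum of 0 in 3.27% and 1.42%, also without that cap. The share in CRPR2 was thus higher than in RPR2 in members, in cells just below the gate and in endothelial cells, and lower in neuroendocrine cells and in cells without gate transcripts.

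The members with *Upk1b* had more of the mesothelial genes than the others in both sections, at far higher levels in RPR2. In RPR2, where they were 128 cells, they had *Upk3b* at 22904 CPM against 262 CPM in the other members and *Msln*, mesothelin, at 16779 against 224 CPM. In CRPR2, where they were 1683 cells, *Upk3b* had 781 against 95.2 CPM and *Msln* 746 against 209 CPM. With the cap lifted, 55.1% of the RPR2 gate cells with *Upk1b* but 3.13% of those in CRPR2 had a transcript of *Msln*, *Upk3b* or *Muc16*. Of the gate genes in the CRPR2 cells, *Itga8* had 22381 against 13033 CPM, *Snai2* 4576 against 2115 CPM, *Nox4* 18301 against 15990 CPM and *Gli1* 1645 against 4137 CPM. The gate trades these genes against each other, so these values are a description. *Mfap4*, outside the rule, had 40541 against 27015 CPM in CRPR2 and 18821 against 27363 CPM in RPR2.

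*Pi16*, *Lum*, *Aspn* and *Cnn1*, picked out after their values were seen, were lower in members with *Upk1b* than in the others in both sections. In CRPR2, *Pi16* had 535 against 8670 CPM, *Lum* 224 against 3457 CPM, *Aspn* 952 against 4306 CPM and *Cnn1* 110 against 5099 CPM. In RPR2, *Pi16* had 1404 against 4240 CPM, *Lum* 447 against 1115 CPM, *Aspn* 1467 against 2700 CPM and *Cnn1* 3445 against 5748 CPM. The RPR2 cells with *Upk1b* held few transcripts of these genes, 22 of *Pi16*, 7 of *Lum*, 23 of *Aspn* and 54 of *Cnn1*. *Igfbp6* and *Ccdc80*, which were higher in members with *Gli1*, did not follow. *Igfbp6* had 20607 against 9179 CPM in RPR2 and 3238 against 5682 CPM in CRPR2, and *Ccdc80* had 2552 against 1586 CPM and 1698 against 5647 CPM. In CRPR2, after thinning, *Upk1b* was found in 3.97% of members with *Gli1* and 11.4% of those without. *Ager* was higher in the CRPR2 members with *Upk1b*, at 12391 against 6318 CPM, but not in those of RPR2, at 10144 against 11686 CPM. *Upk3a*, which had 1181 CPM in RPR2 neuroendocrine cells and 3075 CPM in CRPR2 neuroendocrine cells, was lower in the CRPR2 members with *Upk1b*, at 96.5 against 286 CPM. Of 306 genes, 4 (1.31%) were at least 2-fold higher in members with *Upk1b* in both sections and 15 (4.90%) were lower, and the 4 were *Upk3b*, *Msln*, *Muc16* and *Prom1*.

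**Figure D5:**
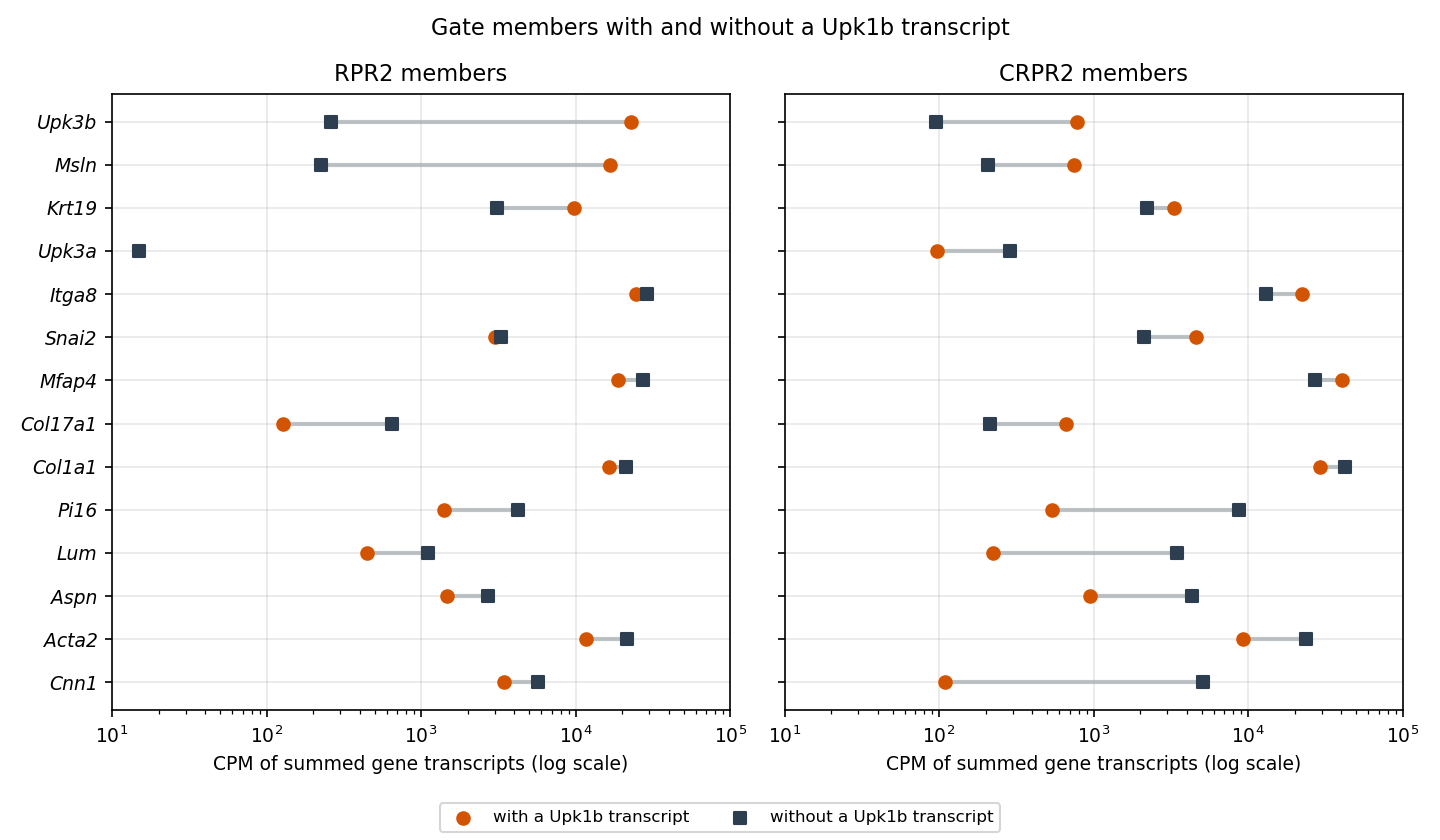
Level of 14 genes in members with (circles) and without (squares) a *Upk1b* transcript, in CPM on a log scale, in RPR2 (left, 128 and 12991 cells) and CRPR2 (right, 1683 and 7166 cells), 1 section each. *Upk3b* and *Msln* reach 22904 and 16779 CPM in the RPR2 cells with *Upk1b*, where *Upk3a* was at 0 and is not drawn, and *Pi16*, *Lum* and *Cnn1* are lower in the cells with *Upk1b* of both sections.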

How the data were processed

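Each genotype had 1 section. By the study's account, both came from 1 block on a Xenium slide. The authors deposited raw transcript counts per gene and segmented cell, made by the Xenium software from images with segmentation by nuclear expansion and without normalization. Seurat 4.4.0 stands in the submitters' processing notes. The matrices hold 541 features, of which 479 are genes. RPR2 had 154818 cells with 16313950 transcripts and CRPR2 342845 cells with 37348565. Negative control probes averaged 3.19 CPM in RPR2 members and 2.02 CPM in CRPR2 members, and reached at most 19.5 and 9.88 CPM. Cell positions were not used here, and the authors' clusters were not analysed here. No doublet caller was run.

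Comparison cells had a gate sum of at most 2 and kept the other limits of the rule. Mural cells had at least 3 *Rgs5* transcripts, endothelial cells at least 5 of the 5 endothelial genes and neuroendocrine cells at least 4 of the 5 neuroendocrine genes in sum. Counts were summed per section and class, scaled to CPM, and a gene was called when 1 side had at least 100 CPM and the sides differed by at least 2-fold. Shares have exact Clopper-Pearson intervals, and ratios exact conditional intervals. Thinning drew 50 transcripts per cell without replacement and left out 600 RPR2 and 213 CRPR2 members. The ratio and its interval were run on simulated independent counts. This checks the code and cannot show how the intervals do with spread between cells or mice. The scripts ran in Python 3.11.15 with scipy 1.17.1, numpy 2.4.6, pandas 2.3.3 and matplotlib 3.10.9.

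Members, gene lists and comparisons were chosen with earlier results of these data known. Genes named are those of the gate, of the pathway lists and of the 10 highest ratios of members over other cells, the 10 largest ratios each way between sections and the 5 each way between members with and without *Gli1*. Others were named after their values were seen, as were the splits by smooth muscle genes and *Upk1b*. Alternatives were other gate sums, limits, minimum transcripts, floors and scalings, and subsets of members added after seeing the data. Some genes that these rules name are not reported here.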

Additional observations from a re-analysis of the deposited data

Results flagged for a closer look

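*Upk1b* in members, set against the other cells of the same section, was past 2-fold in opposite directions in the sections. The log2 ratio of members over other cells was -1.71 in RPR2 and 2.84 in CRPR2. The rule limits *Upk1b* to 2 transcripts in a member, in both sections alike. With 1 section per genotype, the difference between these ratios was not tested.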

How the results depend on the processing

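No paired analysis was possible because each genotype has 1 section, and no replicate could be left out. The share of members kept its direction under all 12 alternatives. Its log2 ratio, -1.72, was -1.61 with a gate sum of 2 or more, -1.84 with 4 or more, -2.34 after thinning before the gate, -1.80 without exclusion limits, -1.49 with 0 transcripts of every exclusion gene and -0.58 without cells with 2 or more neuroendocrine transcripts. It was -1.32, -1.78 and -2.18 with *Itga8*, *Gli1* and *Nox4* left out of the gate. Centring on the median gave 30 genes lower in CRPR2 members in place of 17, and 71 genes higher in RPR2 members than in other cells in place of 47, since the medians were above and below 0. Without exclusion limits the latter count was 31, and the genes that parted members by *Gli1* numbered 56 in place of 35. Among members with *Gli1*, a subset chosen after seeing the data, 29 genes were lower in CRPR2. The log2 ratio of the cycling share, 2.53, was 2.18 after thinning to 100 transcripts, 2.09 with 0 transcripts of every exclusion gene and 1.40 with *Pclaf* added. For these other changes the cause was not tested. No ratio of a named gene that was past 2-fold changed sign under the gate, limit and scaling alternatives. Among the subsets of members, *Tnfaip6*, at 1.07, had -0.30 in members with 10 or more smooth muscle transcripts. Depth limits genes below 100 CPM, which were not called.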

Other observations

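*Ctss*, *Cybb*, *Cd68* and *Mpeg1*, known from phagocytes, were picked out after their values were seen. *Cd68* is also on the macrophage list, whose count was near the background. *Ctss*, which encodes the protease cathepsin S, had 3149 CPM in RPR2 members and 9085 CPM in CRPR2 members (log2 ratio, 1.53). *Cybb*, a subunit of the phagocyte NADPH oxidase, had 733 and 2376 CPM (1.70), *Cd68* 672 and 1835 CPM (1.45) and *Mpeg1*, which encodes perforin-2, 1841 and 4934 CPM (1.42). The ratios in endothelial cells were 1.81, 2.13, 2.18 and 1.86, and in all other cells 0.53, 0.87, 0.92 and 0.69. The macrophage markers *F13a1* and *Mrc1* had lower ratios in members, 0.68 and 0.88, and *Folr2* had 0.79. *Cd209a*, a lectin of dendritic cells, had 523 and 361 CPM (-0.53). *Car3*, a carbonic anhydrase of fat and muscle, had 154 and 627 CPM (2.03), and within each section it was higher in members with *Gli1* than in those without, at 510 against 72.0 CPM in RPR2 and 1086 against 414 CPM in CRPR2.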
